A study of Mus musculus with 35 samples.

Results

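The genes of cholesterol synthesis and its master regulator SREBP2 were followed in mouse liver across a chemical carcinogenesis experiment. The set was a fixed list of 27 genes found by symbol in a table of 55413 genes, and 26 of the 27 had enough reads to be tested among 15297 genes. The list was drawn up without a threshold on any measured value. Its members fall into 6 roles: 6 steps from acetyl-CoA to the isoprene units, 3 genes of the isoprenoid branch, 3 steps from farnesyl units to lanosterol, 8 steps from lanosterol to cholesterol, 4 genes that control SREBP2, and 3 genes of sterol uptake and transport.

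Livers of 21 C57Bl6 mice were measured by sequencing the 3' ends of polyadenylated RNA. A group of 5 untreated mice was killed at day 260, and its samples are labelled as normal liver. All other mice had received diethylnitrosamine (DEN, a carcinogen that liver cells activate) at 25 mg/kg on day 14, and their samples are labelled as hepatocellular carcinoma. Of these, 4 were killed at day 133 without any oligonucleotide and are called P133 mice. The other DEN mice were injected from day 133 to day 260 with 50 mg/kg of an antisense oligonucleotide (ASO), 2 times a week, and 6 of them received a control ASO and 6 an ASO against Smyd3, a lysine methyltransferase. The RNA came from pieces of liver, and hepatocyte markers were present in every group (0 of 6 at 0). No group received an ASO without DEN, and no untreated mice were killed at day 133, so age, DEN and injection cannot be told apart wherever they change together. Levels are given as CPM, the count of a gene relative to the library size after scaling by edgeR's TMM method over all mice. Smyd3 itself was at 0 to 0.758 CPM in Smyd3-ASO mice, where control-ASO mice had 3.11 to 4.64 CPM, P133 mice 2.66 to 5.47 CPM and untreated mice 2.36 to 5.08 CPM.

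Cholesterol is built from acetyl-CoA through mevalonate, isoprene units, squalene and lanosterol, and the liver is a main site of this synthesis. SREBP2 is a membrane-bound transcription factor. When sterols are scarce, its escort Scap carries it to the Golgi, where it is cleaved and released to switch on nearly every gene of the pathway. When sterols are plentiful, the Insig proteins hold Scap in the endoplasmic reticulum. The messenger RNA of the enzymes therefore usually moves as a block, and Insig1 is itself a target of SREBP2.

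The promoters of SREBP2 targets carry sterol regulatory elements beside CCAAT boxes, which bind the partner factor NF-Y. RefSeq windows on GRCm38.p6, read over the 250 bases before each start site, were matched to 23 of the 27 members with 29 windows. Fdft1, Fdps, Sqle and Stard4 had no window. The windows of 6 members described at length below are printed 5' to 3' on the strand of the gene, with CCAAT on either strand (it reads ATTGG on the other) and TCACNCCAC, a sterol regulatory element consensus, in capitals. They are those of Hmgcs1 at chr13:119690101-119690350 on the plus strand, Idi1 at chr13:8885356-8885605 on the plus strand, Cyp51 at chr5:4104698-4104947 on the minus strand, Ebp at chrX:8193513-8193762 on the minus strand, Dhcr7 at chr7:143822917-143823166 on the plus strand and Insig1 at chr5:28071162-28071411 on the plus strand.
Hmgcs1: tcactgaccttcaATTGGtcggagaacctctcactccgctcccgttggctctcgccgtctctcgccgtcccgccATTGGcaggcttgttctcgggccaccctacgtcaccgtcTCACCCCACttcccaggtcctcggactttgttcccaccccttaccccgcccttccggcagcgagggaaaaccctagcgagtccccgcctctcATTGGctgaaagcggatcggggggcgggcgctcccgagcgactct
Idi1: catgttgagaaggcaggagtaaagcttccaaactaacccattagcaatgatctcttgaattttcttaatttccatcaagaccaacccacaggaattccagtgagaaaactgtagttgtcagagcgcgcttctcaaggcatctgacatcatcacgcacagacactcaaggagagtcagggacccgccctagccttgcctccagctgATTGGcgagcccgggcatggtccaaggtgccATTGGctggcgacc
Cyp51: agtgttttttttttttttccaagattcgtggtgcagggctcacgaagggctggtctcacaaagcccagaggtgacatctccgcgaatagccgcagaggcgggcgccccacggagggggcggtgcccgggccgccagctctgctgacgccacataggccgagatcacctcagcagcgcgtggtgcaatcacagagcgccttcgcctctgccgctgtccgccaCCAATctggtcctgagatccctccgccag
Ebp: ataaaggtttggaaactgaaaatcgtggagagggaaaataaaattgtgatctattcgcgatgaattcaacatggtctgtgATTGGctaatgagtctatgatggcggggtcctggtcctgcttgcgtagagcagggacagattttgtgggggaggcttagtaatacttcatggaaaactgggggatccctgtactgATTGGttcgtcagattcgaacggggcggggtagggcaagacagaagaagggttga
Dhcr7: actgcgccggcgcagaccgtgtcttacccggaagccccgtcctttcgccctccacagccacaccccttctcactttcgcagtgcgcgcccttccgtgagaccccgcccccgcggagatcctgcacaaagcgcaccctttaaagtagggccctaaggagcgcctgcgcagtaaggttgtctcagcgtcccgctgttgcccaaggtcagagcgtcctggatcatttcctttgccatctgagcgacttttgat
Insig1: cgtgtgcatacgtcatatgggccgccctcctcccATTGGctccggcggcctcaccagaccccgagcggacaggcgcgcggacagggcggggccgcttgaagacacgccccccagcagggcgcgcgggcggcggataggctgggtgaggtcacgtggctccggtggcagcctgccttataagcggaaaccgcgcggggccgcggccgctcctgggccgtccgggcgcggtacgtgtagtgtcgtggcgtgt

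The Hmgcs1 window held TCACCCCAC, which began 137 bases before the start site, and 3 CCAAT boxes that began 237, 176 and 45 bases before it. The windows of Idi1 and Ebp held 2 boxes each, those of Cyp51 and Insig1 held 1 each, and the printed window of Dhcr7, its most upstream one, held neither motif. CCAAT was found in 21 of 29 member windows (72.4%), against 33.8% of all 32851 promoter windows and 35.3% of the windows of tested genes. By gene, 21 of 23 members held it in at least 1 window, against 40.6% of 10169 tested genes, and Acat2 and Scap did not. The GC box GGGCGG, which binds Sp1, stood in 75.9% of member windows and 54.6% of those of tested genes. The E-box CACGTG stood in 20.7% against 8.14%. TCACNCCAC was found in 1 member, Hmgcs1 (3.45% of member windows against 1.04%), and CACCCCAC in 2, Acat2 and Hmgcs1 (6.9% against 2.74%). All motifs were searched on both strands, and TCACNCCAC and CACCCCAC can share bases. These are matches of letters in a short window, and binding was not measured.

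At day 133 the livers of DEN mice held less RNA of most of the pathway than untreated livers of day 260. Of the 26 tested members, 15 were lower and 0 higher by edgeR's quasi-likelihood test at an adjusted p of 0.05 or less, while 31.6% of all tested genes were called, 15.1% higher and 16.6% lower. The median log2 change of the members was -0.79, and that of all tested genes was 0.0018. The lower genes ran through the whole pathway, with 4 of 6 mevalonate steps, 2 of 3 isoprenoid genes, all 3 steps to lanosterol, 5 of 8 later steps and Scap among the controllers. In 15 members every P133 mouse lay below every untreated mouse, as did 14.5% of all tested genes, and 0 lay wholly above, as did 12.6%. The comparisons with untreated mice depend on scaling: with library totals in place of TMM the median of all genes moved to 0.59 and that of the members to -0.20. The distance of the members' median from that of all genes was -0.79 under TMM and -0.79 under library totals. A change of scaling moves all genes by nearly the same amount, so this distance could hardly change and is no check of the fall. Under library totals 7 members were called lower, Mvk, Fdps, Fdft1, Sqle, Msmo1, Nsdhl and Dhcr7, all of them also called under TMM, and Ggps1, Cyp51, Hsd17b7 and Mylip were called higher.

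Dhcr7 encodes the last reductase of the Kandutsch-Russell route to cholesterol and had the lowest fitted change of the members. Its level was 46, 70.5, 49.9, 58.2 and 95.8 CPM in untreated mice 1 to 5 and 10.7, 11.9, 10.2 and 15.2 CPM in P133 mice 1 to 4. The groups did not overlap. The level fell by 2.41 on the log2 scale (SE 0.22, 95% interval -2.88 to -1.93, edgeR adjusted p = 3.59e-06), which is 5.3-fold.

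Of the 6 mevalonate steps, 4 were called lower (Hmgcs1, Mvk, Pmvk and Mvd), Idi1 and Acat2 did not pass the test, and under library totals only Mvk was called lower. Hmgcs1, which joins acetyl-CoA to acetoacetyl-CoA, had 189, 255, 177, 221 and 497 CPM in untreated mice and 138, 130, 118 and 109 CPM in P133 mice. All P133 mice were lower, and untreated mouse 5 stood well above the other untreated mice. The log2 change of Hmgcs1 was -1.11 (SE 0.28, edgeR adjusted p = 0.0126). Under library totals it was -0.50 and was no longer called (adjusted p = 0.118). Mvk, the mevalonate kinase, went from 21.7 ± 2.58 CPM (SD, n = 5) to 8.07 ± 2.07 CPM (SD, n = 4), a 2.69-fold fall (edgeR adjusted p = 3.52e-05). Pmvk, the next kinase, had a log2 change of -0.52 (edgeR adjusted p = 0.0447), but its sign turned to 0.08 under library totals, and its call ended without any 1 of untreated mice 2, 4 or 5 or P133 mice 2, 3 or 4 (adjusted p up to 0.128). Mvd, which decarboxylates mevalonate diphosphate, was 2.66-fold lower (edgeR adjusted p = 0.026). That call ended without untreated mouse 2 or P133 mouse 2 (adjusted p up to 0.0700) and under library totals (adjusted p = 0.106). Mvd lies wholly within Gm20388 on the opposite strand, and the strand setting of the counting is not stated, so reads of the pair cannot be told apart. Idi1, the isomerase that makes the reactive isoprene unit, had 55.5, 73.1, 93.8, 94.5 and 118 CPM in untreated and 25, 47.3, 5.1 and 50.9 CPM in P133 mice. The groups did not overlap, but P133 mouse 3 stood far below the rest and the change of -1.43 did not pass the test (edgeR adjusted p = 0.102). Acat2, the thiolase that makes acetoacetyl-CoA, had a log2 change of -0.31 (edgeR adjusted p = 0.109).

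In the isoprenoid branch Fdps and Dhdds were lower and Ggps1 was not called, and the 3 steps to lanosterol (Fdft1, Sqle and Lss) were lower under TMM. Fdps, which makes farnesyl diphosphate, stood at 138, 145, 115, 160 and 295 CPM in untreated and at 74.1, 73.1, 53 and 70 CPM in P133 mice, a 2.52-fold fall (edgeR adjusted p = 0.00183). Fdft1, the squalene synthase, was 2.18-fold lower (edgeR adjusted p = 0.00013), and part of its 3' end overlaps Ctsb on the opposite strand. Sqle, the squalene epoxidase and a rate-limiting step, had 16.9, 20.5, 24.5, 22.8 and 62.7 CPM in untreated and 11.8, 6.95, 9.32 and 6.95 CPM in P133 mice. No P133 mouse reached the lowest untreated value. The fall of Sqle was 3.37-fold (edgeR adjusted p = 0.015). Lss, the lanosterol synthase, was 1.99-fold lower (edgeR adjusted p = 0.00627), and under library totals its change of -0.38 was no longer called. Dhdds, which builds dolichol from farnesyl diphosphate, was 1.92-fold lower (edgeR adjusted p = 0.000277), and under library totals its change of -0.35 was no longer called. Ggps1, which makes geranylgeranyl diphosphate, had a log2 change of 0.11 with a 95% interval of -0.35 to 0.57 and did not pass the test.

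Among the later steps, Nsdhl and Msmo1, which remove the methyl groups of lanosterol, fell 2.84-fold and 2.34-fold (edgeR adjusted p = 0.000113 and 0.000123). Ebp, the sterol isomerase, had 280, 617, 387, 263 and 298 CPM in untreated and 166, 178, 183 and 219 CPM in P133 mice. The groups did not overlap, the fall was 1.97-fold (edgeR adjusted p = 0.00612), and under library totals its change of -0.37 was no longer called. Tm7sf2, a sterol reductase, was 1.55-fold lower (edgeR adjusted p = 0.0112), with -0.05 and no call under library totals. Cyp51, the lanosterol demethylase, did not pass the test under TMM. Its level was 101, 127, 132, 139 and 241 CPM in untreated and 153, 118, 136 and 141 CPM in P133 mice, so the groups overlapped. Its log2 change was -0.11 (95% interval -0.56 to 0.34, edgeR adjusted p = 0.732), which turned to 0.51 and was called (adjusted p = 0.0454) under library totals. Hsd17b7, a ketosteroid reductase of the same demethylation, had a change of 0.01, and Sc5d, the desaturase before Dhcr7, one of -0.12, and neither passed the test.

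Of the 4 genes that control SREBP2, only Scap was called. It had 76.7, 82.6, 67.3, 71.4 and 65.7 CPM in untreated and 50.5, 54.1, 55 and 62.1 CPM in P133 mice, a 1.31-fold fall (edgeR adjusted p = 0.024) that turned to a log2 change of 0.20 under library totals. The call of Scap ended without untreated mouse 2 or P133 mouse 1 or 2 (adjusted p up to 0.0785). Srebf2, the gene of SREBP2, had a log2 change of -0.48 (edgeR adjusted p = 0.0861). The values for Insig1 (-0.44), Insig2 (-0.13), the sterol carrier Stard4 (-0.27) and Mylip (0.57), the ubiquitin ligase that degrades lipoprotein receptors, did not pass the test. Srebf2 went from 16.7 ± 4.42 CPM (SD, n = 5) to 12 ± 2.34 CPM (SD, n = 4), and the groups overlapped.

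**Figure D1:**
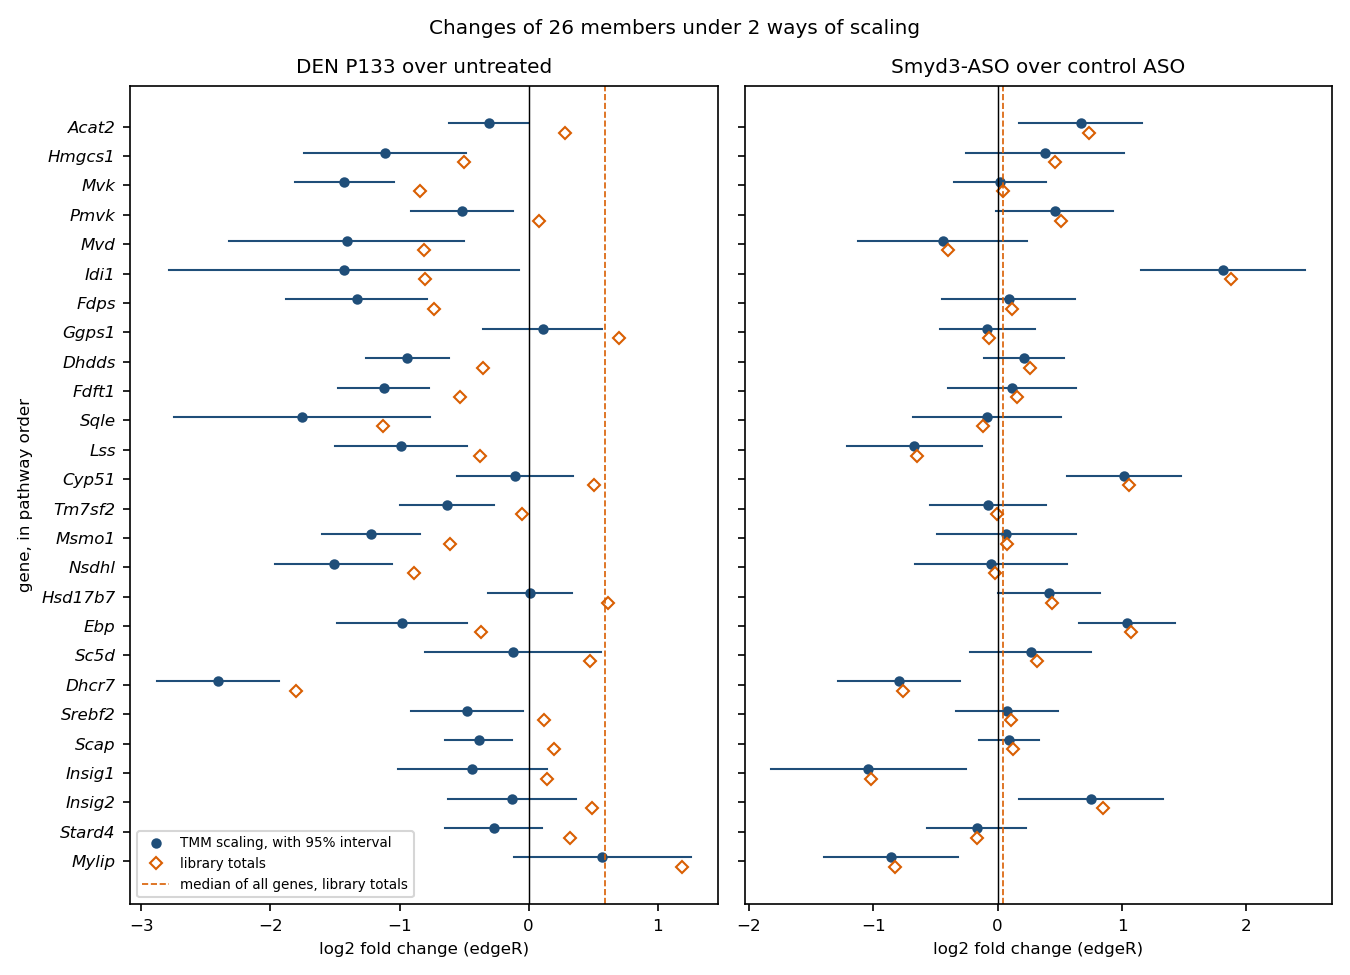
Log2 fold changes (horizontal axis) of the 26 tested members, in pathway order, for P133 over untreated mice (left) and Smyd3-ASO over control-ASO mice (right). Circles with bars are edgeR estimates with 95% intervals under TMM, diamonds are the same under library totals, and the dashed line is the median of all tested genes under library totals. On the left every diamond lies about as far to the right of its circle as the dashed line lies from 0 (0.59), and the signs of Pmvk, Cyp51 and Scap are among those that turn. On the right the line lies at 0.04 and the estimates nearly coincide.

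Other measures also separated the P133 mice. Dbp, a clock output gene, had 1.53 to 8.85 CPM in P133 mice against 13 to 119 CPM in untreated mice, and Cry1, a clock repressor, had 19.8 to 31.4 CPM against 2.61 to 3.9 CPM. Of 15 clock genes 3 were called higher and 4 lower, against 15.1% and 16.6% of all tested genes, and 8 did not pass the test. Their log2 changes ran from -4.55 for Dbp to 4.49 for Arntl. The time of day of killing is not given in the sources used here. The summed level of 6 hepatocyte markers ran from 39170 to 42800 CPM in P133 and from 57570 to 112100 CPM in untreated mice, and 5 of the 6 were called lower. Summed erythroid markers (4 genes) ran from 1092 to 1546 CPM against 2615 to 6523 CPM, and 4 of 4 were called lower. Over all tested genes, 16.6% were called lower and 14.5% lay wholly lower in P133 mice. Of the other marker lists, Sox9 was higher and Spp1 lower among 4 tested bile duct genes (log2 changes 2.23 and -1.05), and Marco and Vsig4 were higher and Csf1r lower among 6 macrophage genes (2.31, 1.00 and -0.62). Stab2 and Kdr were higher and Lyve1 and Pecam1 lower among 5 endothelial genes (0.63, 0.54, -1.49 and -0.67). Cd4 was higher among 2 tested T and B cell genes (0.91), Col3a1 lower among 6 stellate and fibroblast genes (-2.75), and Ccnb1 lower among 4 cycling genes (-2.77). None of these signs turned under library totals, where Spp1, Csf1r, Pecam1 and Ccnb1 were no longer called. With that scaling 2 of 6 hepatocyte markers (Ttr and Fgb) and 3 of 4 erythroid markers (Hba-a1, Hbb-bs and Hbb-bt) were still called lower. Among the 3 tested neutrophil genes 0 were called, and Ly6g was at 0 in all P133 mice. The part of these in the result was not tested. In bulk tissue, fewer cells of a type and less RNA per cell cannot be told apart.

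After the ASO period, part of the pathway stood above its P133 level. In control-ASO mice 7 of 26 members were higher than in P133 mice and 0 lower, against 27% of all genes called, 14.4% higher and 12.6% lower. In Smyd3-ASO mice 11 were higher and 1 lower, against 24.8% of all genes called, 13.1% higher and 11.7% lower. Medians of the members were 0.25 and 0.45, against 0.03 and 0.05 for all tested genes. Both comparisons use the same 4 P133 mice. Compared with P133 mice, 3 members (Hmgcs1, Sqle and Srebf2) lay wholly higher in control-ASO mice and 0 wholly lower, as did 11.3% and 9.99% of all genes. In Smyd3-ASO mice 9 lay wholly higher and 1, Mylip, wholly lower, as did 9.8% and 9.47% of all genes. Every higher call was also made under library totals (7 of 7 and 11 of 11), while the lower call of Mylip was not. Library totals moved the medians of all genes up to 0.28 and 0.34, which favours higher calls, so this is no separate check. Without P133 mouse 2, 4 members were called higher in control-ASO mice, and without control-ASO mouse 2, 12 were. Without P133 mouse 1, 7 were called higher in Smyd3-ASO mice. Hsd17b7 (log2 change -0.55, edgeR adjusted p = 0.0527) was called lower in control-ASO mice by DESeq2 (adjusted p = 0.0492), and by edgeR without control-ASO mouse 1 or mouse 3. At an unadjusted p under 0.05 it was the 1 member lower in control-ASO mice.

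Hmgcs1 had 141, 349 and 586 CPM as lowest, median and highest in control-ASO mice and 381, 448 and 751 CPM in Smyd3-ASO mice, against at most 138 CPM in P133 mice. Neither ASO group overlapped the P133 mice. The rise of Hmgcs1 was 3.09-fold with control ASO (edgeR adjusted p = 0.00673) and 4.01-fold with Smyd3-ASO (edgeR adjusted p = 0.000158). Sqle rose 3.11-fold and 2.93-fold (edgeR adjusted p = 0.00031 and 0.00693), again without overlap. Mvk rose 2.25-fold and 2.27-fold (edgeR adjusted p = 0.00188 and 0.0013). Srebf2 had 14.3, 9.33, 13.5 and 10.7 CPM in P133 mice, 19.4, 25.5 and 31.3 CPM as lowest, median and highest with control ASO, and 14.5, 30.3 and 32.7 CPM with Smyd3-ASO. All ASO mice lay above all P133 mice, and the rises were 2.12-fold and 2.23-fold (edgeR adjusted p = 0.000503 and 0.00509). Scap rose 1.33-fold and 1.41-fold (edgeR adjusted p = 0.0186 and 0.0167), calls that ended without P133 mouse 1 in either comparison or without P133 mouse 2 in that of control ASO (adjusted p up to 0.0607). Fdft1 rose 1.56-fold and 1.69-fold (edgeR adjusted p = 0.0219 and 0.0386). The former call ended without any 1 of P133 mice 2 to 4 (adjusted p up to 0.0628), and the latter without any P133 mouse or without Smyd3-ASO mouse 2, 5 or 6 (adjusted p up to 0.0958).

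Dhcr7 was called higher with control ASO (1.61-fold, edgeR adjusted p = 0.0195), a call that ended without P133 mouse 1, 2 or 3 (adjusted p up to 0.0584). With Smyd3-ASO it had a log2 change of -0.11 from P133 (95% interval -0.66 to 0.45). In Smyd3-ASO mice, Idi1 was 5.98-fold, Cyp51 2.44-fold, Ebp 2.29-fold, Insig2 1.89-fold and Acat2 1.65-fold above P133 (edgeR adjusted p = 0.00911, 0.00033, 0.00099, 0.0308 and 0.043). The call of Insig2 ended without P133 mouse 1, 3 or 4 or Smyd3-ASO mouse 1 or 2 (adjusted p up to 0.0944). That of Acat2 ended without any P133 mouse or without Smyd3-ASO mouse 2 (adjusted p up to 0.116). In control-ASO mice the same 5 genes had log2 changes of 0.77, 0.28, 0.16, 0.18 and 0.05, none of which passed the test. Mylip was 2.26-fold below P133 with Smyd3-ASO (edgeR adjusted p = 0.0116).

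Against untreated mice of the same day, Dhcr7 was lower and Srebf2, the gene of SREBP2, higher in both ASO groups under both scalings. Of the 8 steps after lanosterol, 6 were lower with control ASO under TMM, and 4 were lower and 1, Cyp51, higher with Smyd3-ASO. In control-ASO mice 8 members were lower and 1 higher, against 45.9% of all genes called, 23.7% higher and 22.2% lower. In Smyd3-ASO mice 9 were lower and 5 higher, against 47.6% called, 24.4% higher and 23.2% lower. Medians of the members were -0.37 and -0.24, against 0.06 and 0.06 for all genes. Both comparisons use the same 5 untreated mice, and with library totals the medians of all genes moved to 0.90 and 0.96, those of the members to 0.48 and 0.64, and the called members to 11 higher and 1 lower with control ASO and to 14 higher and 2 lower with Smyd3-ASO. Calls made under both scalings were Dhcr7 lower and Srebf2 higher with control ASO, and Dhcr7 and Nsdhl lower and Hmgcs1, Idi1, Cyp51, Srebf2 and Insig2 higher with Smyd3-ASO. The members wholly below untreated mice were 4 with control ASO (Fdps, Dhdds, Nsdhl and Dhcr7) and 6 with Smyd3-ASO (Fdps, Lss, Tm7sf2, Nsdhl, Dhcr7 and Insig1), as were 13.8% and 14.6% of all genes. With control ASO 0 lay wholly above, as did 13.8% of all genes. Without untreated mouse 1 or mouse 3, 2 members (Idi1 and Cyp51) were called higher with Smyd3-ASO, and without untreated mouse 4, 3 were (these and Hmgcs1).

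Dhcr7 had 11.7, 20.2 and 24 CPM as lowest, median and highest with control ASO and 7.69, 9.74 and 17.6 CPM with Smyd3-ASO, against 46 to 95.8 CPM in untreated mice. No ASO mouse reached the untreated range. It was 3.31-fold and 5.79-fold lower (edgeR adjusted p = 1.95e-05 and 7.29e-06). Nsdhl was 2.69-fold and 2.81-fold lower (edgeR adjusted p = 0.00218 and 0.000189), and under library totals the former was -0.55 and was no longer called (adjusted p = 0.093). Fdps was 2.16-fold and 2.05-fold lower (edgeR adjusted p = 0.00816 and 0.00452), and under library totals it kept its sign (-0.25 and -0.14) without a call. Dhdds (1.69-fold and 1.47-fold), Tm7sf2 (1.63-fold and 1.74-fold) and Msmo1 (1.66-fold and 1.60-fold) were lower in both under TMM, and their signs turned under library totals, to 0.09 and 0.35, 0.13 and 0.13, and 0.14 and 0.21. With control ASO the call of Tm7sf2 ended without untreated mouse 2 (adjusted p = 0.0618) and that of Msmo1 without untreated mouse 5 (adjusted p = 0.0675). With Smyd3-ASO the call of Msmo1 ended without untreated mouse 3 or 5 or Smyd3-ASO mouse 2 (adjusted p up to 0.0780). Ebp (1.77-fold, edgeR adjusted p = 0.00833) and Hsd17b7 (1.46-fold, edgeR adjusted p = 0.0369) were lower with control ASO under TMM, and their signs turned to 0.04 and 0.31 under library totals. The call of Hsd17b7 ended without any 1 of untreated mice 1, 3 or 5 or control-ASO mice 2, 4, 5 or 6 (adjusted p up to 0.0967).

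With Smyd3-ASO, Lss was 1.93-fold, Mvd 2.05-fold and Insig1 2.86-fold below untreated mice (edgeR adjusted p = 0.00559, 0.0218 and 0.00283). Under library totals these 3 kept their sign (-0.04, -0.11 and -0.64) without a call, and the call of Mvd ended without untreated mouse 5 (adjusted p = 0.0651). Insig1 had 104, 82, 62.2, 73 and 127 CPM in untreated mice and 17.2, 23 and 59 CPM as lowest, median and highest in Smyd3-ASO mice, so these groups did not overlap. Higher than untreated with Smyd3-ASO were Hmgcs1 (1.83-fold), Idi1 (2.19-fold), Cyp51 (2.24-fold), Srebf2 (1.58-fold) and Insig2 (1.71-fold), with edgeR adjusted p = 0.0185, 0.00344, 0.000548, 0.0256 and 0.0248. Of these, Cyp51 had no overlap with untreated mice, as had 13.9% of all tested genes in that direction. The call of Hmgcs1 ended without untreated mouse 1 or 3 (adjusted p up to 0.0508), that of Srebf2 without untreated mouse 1, 3 or 4 or Smyd3-ASO mouse 2 (up to 0.0642), and that of Insig2 without untreated mouse 1, 3 or 4 or Smyd3-ASO mouse 1 (up to 0.0657). With control ASO, Srebf2 was 1.52-fold above untreated (edgeR adjusted p = 0.00995).

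**Figure D2:**
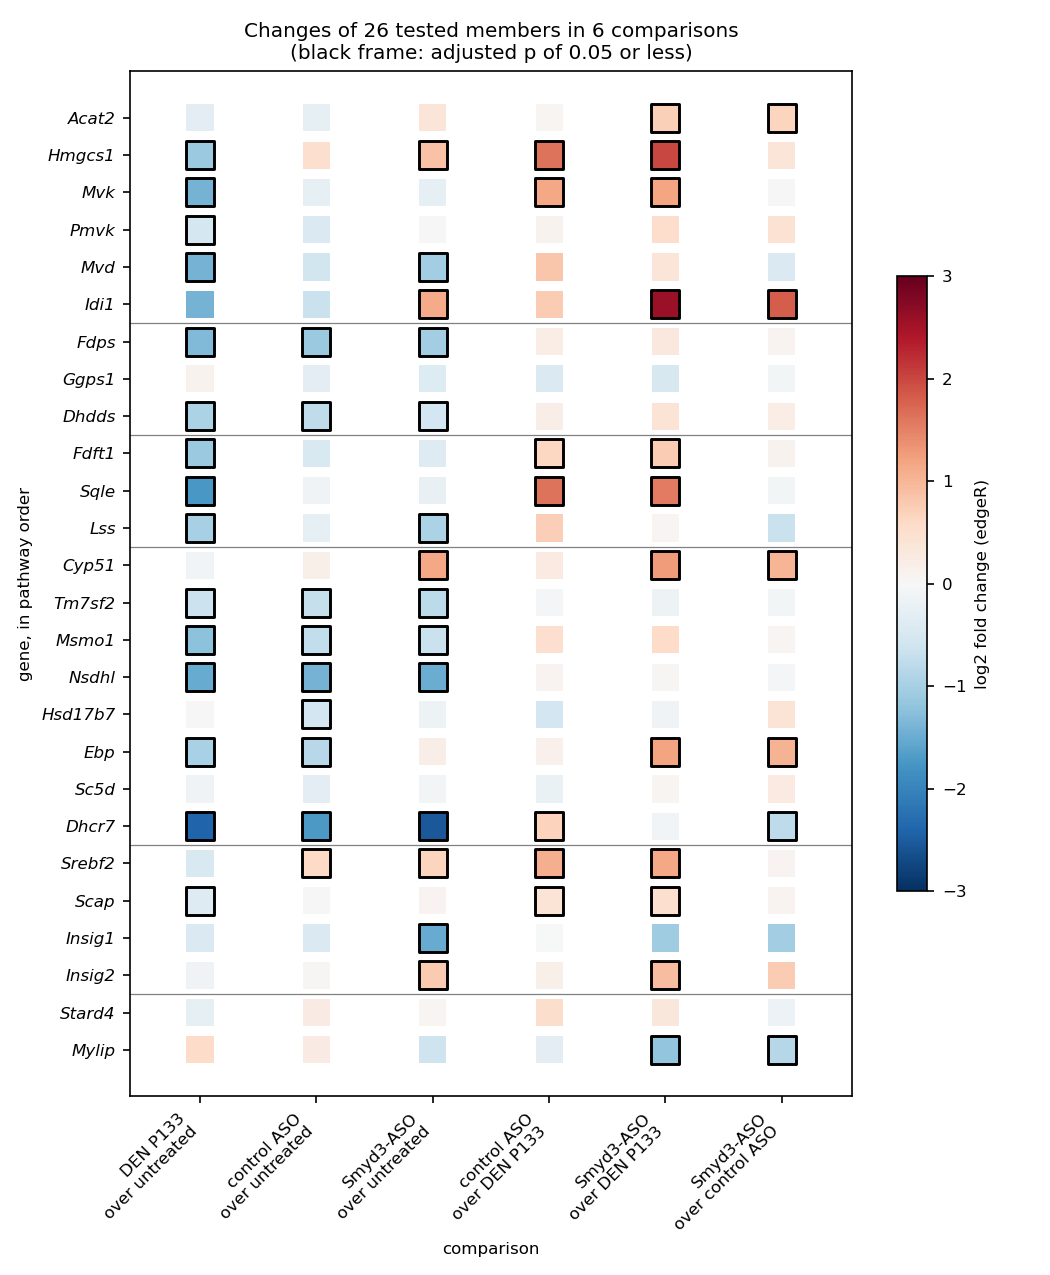
Colour gives the edgeR log2 fold change (TMM) of each of the 26 tested members (rows, in pathway order, with lines between roles) in the 6 comparisons (columns), and a black frame marks an adjusted p of 0.05 or less. Comparisons share groups. The first column holds 15 framed lower genes and 0 framed higher ones, and in the last column Acat2, Idi1, Cyp51 and Ebp are framed higher and Dhcr7 and Mylip lower. Under library totals the framed signs of Pmvk and Scap turn in the first column, of Dhdds, Tm7sf2, Msmo1, Hsd17b7 and Ebp in the second, and of Dhdds, Tm7sf2 and Msmo1 in the third.

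In the direct comparison of the ASO groups at day 260, Acat2, Idi1, Cyp51 and Ebp were higher and Dhcr7 and Mylip lower in Smyd3-ASO than in control-ASO mice. These 4 higher and 2 lower of 26 members were about the share found over all genes, of which 26.1% were called, 13.3% higher and 12.9% lower. The members' median was 0.08 and that of all tested genes 0.01, and with library totals these were 0.11 and 0.04. Idi1, Cyp51 and Ebp were called higher and Dhcr7 lower under both scalings, and leaving out any 1 mouse ended none of those 4 calls. Idi1, Cyp51 and Ebp were also the members in which every Smyd3-ASO mouse lay above every control-ASO mouse, as did 5.27% of all tested genes, and 0 members lay wholly below, as did 5.83%. Without control-ASO mouse 2, or without Smyd3-ASO mouse 6, 4 were called lower (Lss, Dhcr7, Insig1 and Mylip), and without control-ASO mouse 5 or mouse 6, 1 was (Dhcr7).

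Idi1 (chr13:8885501-8892451 on mm10) had 25.5, 55.3 and 83.1 CPM as lowest, median and highest with control ASO and 116, 192 and 333 CPM with Smyd3-ASO. It rose 3.52-fold (log2 change 1.81, SE 0.31, 95% interval 1.15 to 2.47, edgeR adjusted p = 0.00107). Ebp (chrX:8185329-8193512) had 149, 208 and 273 CPM with control ASO and 328, 428 and 549 CPM with Smyd3-ASO, a 2.06-fold rise (SE 0.18 on the log2 scale, edgeR adjusted p = 0.00107). Cyp51 (chr5:4081145-4104746) had 75.5, 180 and 207 CPM with control ASO and 278, 331 and 396 CPM with Smyd3-ASO, a 2.02-fold rise (SE 0.21 on the log2 scale, edgeR adjusted p = 0.00377). In each of the 3 the groups were apart, with the lowest Smyd3-ASO mouse above the highest control-ASO mouse. The 3' end of Cyp51 overlaps Akap9 on the opposite strand by 166 bases. Acat2 had 39.5, 65.5 and 90.6 CPM with control ASO and 71.5, 85.6 and 170 CPM with Smyd3-ASO, and the groups overlapped. Its 1.59-fold rise had an edgeR adjusted p of 0.0463, a call that ended under library totals (adjusted p = 0.0569) and without any 1 of control-ASO mice 1, 2, 4, 5 or 6 or Smyd3-ASO mice 2, 4 or 6 (adjusted p up to 0.097).

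Dhcr7 (chr7:143823145-143848410) was lower with Smyd3-ASO than with control ASO, at 7.69 to 17.6 CPM against 11.7 to 24 CPM. The groups overlapped, and the level was 1.73-fold lower (SE 0.23 on the log2 scale, 95% interval -1.28 to -0.30, edgeR adjusted p = 0.0205). Against P133 mice, Dhcr7 with Smyd3-ASO did not pass the test (log2 change -0.11, edgeR adjusted p = 0.791). Mylip had 2.14, 3.6 and 5.44 CPM with control ASO and 1.26, 2.13 and 2.59 CPM with Smyd3-ASO, from 10 to 67 reads per mouse over all groups. Its 1.81-fold fall (edgeR adjusted p = 0.0231) was no longer called under library totals (adjusted p = 0.0538) or without control-ASO mouse 5 or 6 (adjusted p up to 0.0607). Lss had a log2 change of -0.67 that did not pass the test (edgeR adjusted p = 0.0643).

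The 2 Insig genes had estimates of opposite sign, each just short of the threshold. Insig1 (chr5:28071363-28078662) had 28.6, 61.9 and 113 CPM as lowest, median and highest with control ASO and 17.2, 23 and 59 CPM with Smyd3-ASO. The log2 change was -1.04 (95% interval -1.82 to -0.26, edgeR adjusted p = 0.0501). Insig2 (chr1:121304353-121332589) had 140, 176 and 328 CPM with control ASO and 171, 326 and 525 CPM with Smyd3-ASO. Its log2 change was 0.75 (95% interval 0.17 to 1.33, edgeR adjusted p = 0.0532). DESeq2 called both (adjusted p = 0.0168 and 0.027), as did a fit of all 4 groups together (adjusted p = 0.0247 and 0.0298). Neither was called under library totals (edgeR adjusted p = 0.0516 and 0.0506). Srebf2 and Scap had changes of 0.08 (95% interval -0.34 to 0.49) and 0.09 (95% interval -0.15 to 0.33). The other members had changes between -0.44 for Mvd and 0.46 for Pmvk and did not pass the test, among them Hmgcs1 (0.38, 95% interval -0.26 to 1.02), Fdps (0.09, 95% interval -0.45 to 0.62), Fdft1 (0.12, 95% interval -0.40 to 0.63) and Sqle (-0.08, 95% interval -0.68 to 0.51).

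**Figure D3:**
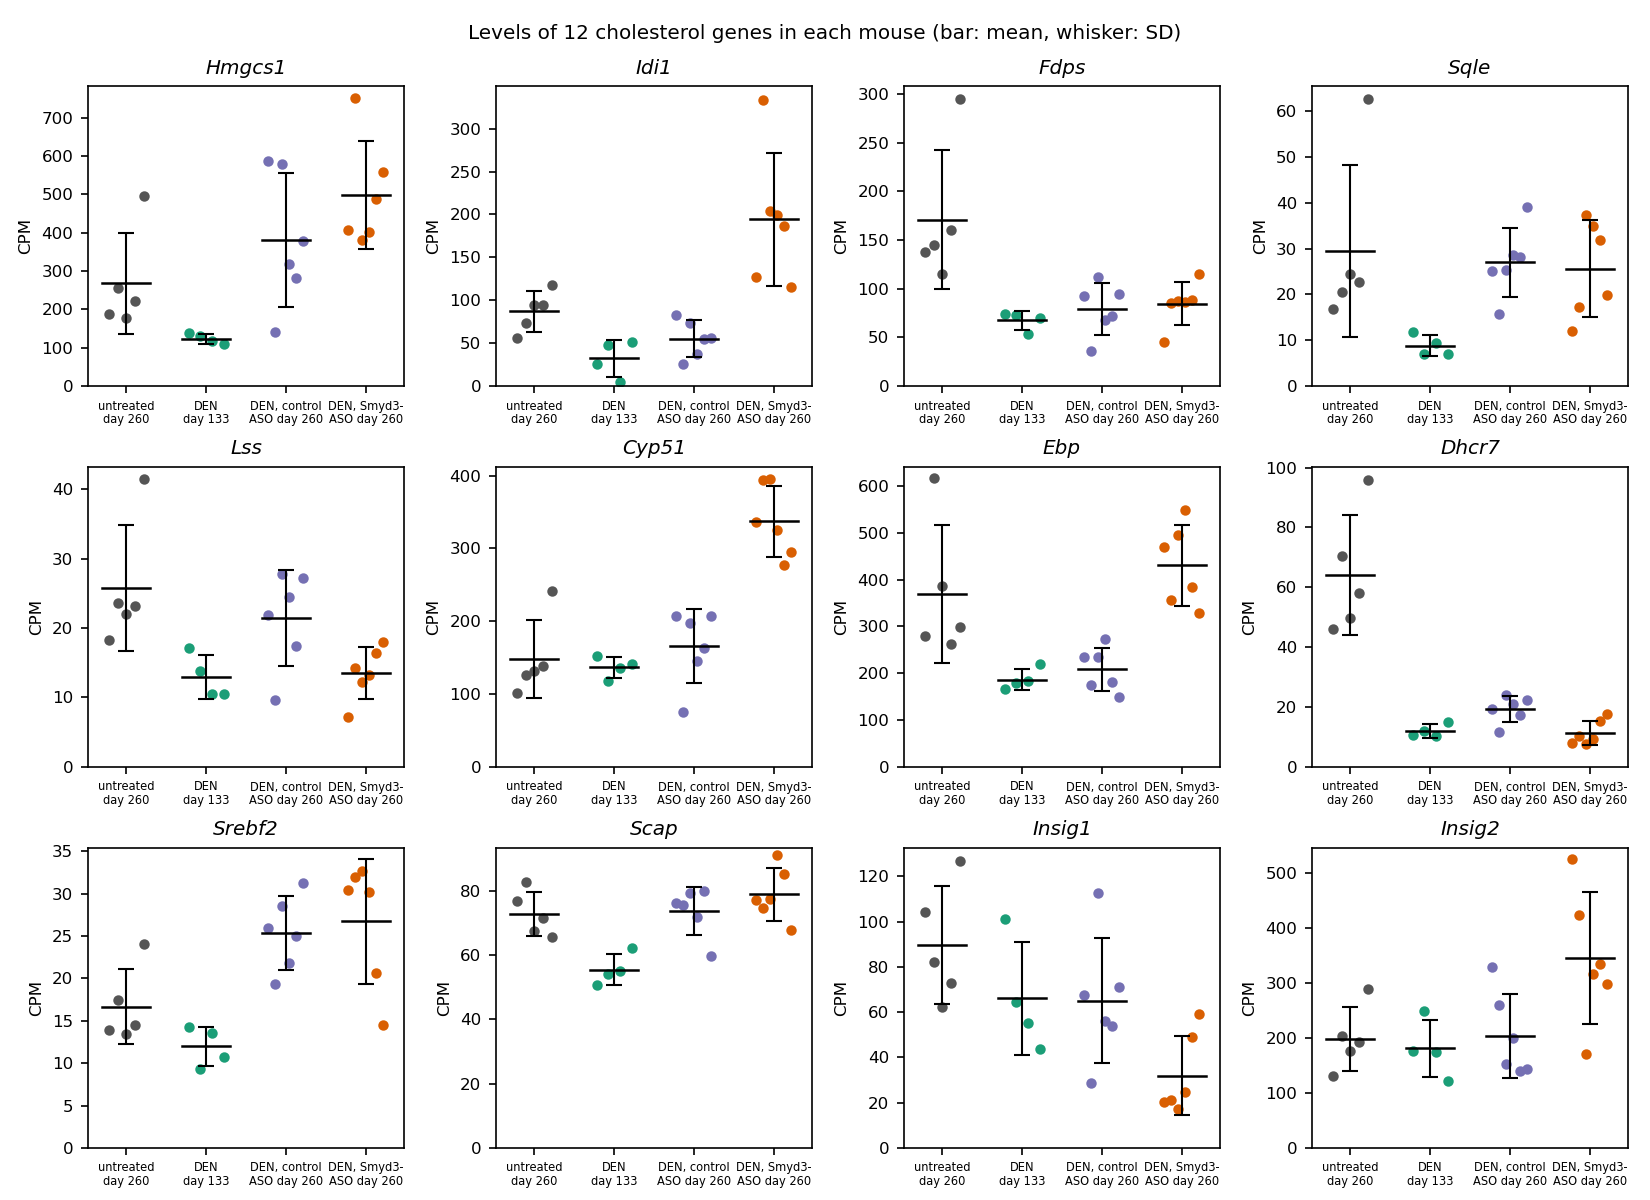
CPM (vertical axis, from 0, TMM-scaled) of 12 members in each of the 21 mice, with the mean as a bar and the SD as whiskers. The 6 Smyd3-ASO mice lie above all control-ASO mice for Idi1, Cyp51 and Ebp, and the 4 P133 mice lie below all untreated mice for Hmgcs1, Idi1, Fdps, Sqle, Lss, Ebp, Dhcr7 and Scap. Differences from untreated mice shift under library totals, where the sign of Scap in P133 mice and of Ebp in control-ASO mice turns.

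Ratios between members inside 1 mouse do not depend on how libraries are scaled. The 4 ratios below were chosen after the values were seen and are given without a test, and each is read only between mice. Idi1 over Fdps, neighbouring steps, had a median of 0.505 in untreated, 0.493 in P133, 0.687 in control-ASO and 2.32 in Smyd3-ASO mice. The highest mouse outside the Smyd3-ASO group reached 0.903, and the lowest inside it had 1.01. Cyp51 over Lss, the step and the one before it, had medians of 5.82, 11, 7.73 and 26, and the lowest Smyd3-ASO mouse (16.5) lay above the highest of the others (13.6). Ebp over Dhcr7 had medians of 6.09, 15.2, 11.2 and 46.9, with the lowest Smyd3-ASO mouse at 18.7 and the highest of the others at 18. Insig2 over Insig1 had medians of 2.47, 2.99, 3.08 and 11.3, and here the groups overlapped, since the Smyd3-ASO mice began at 5.04 and the highest control-ASO mouse reached 9.08.

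**Figure D4:**
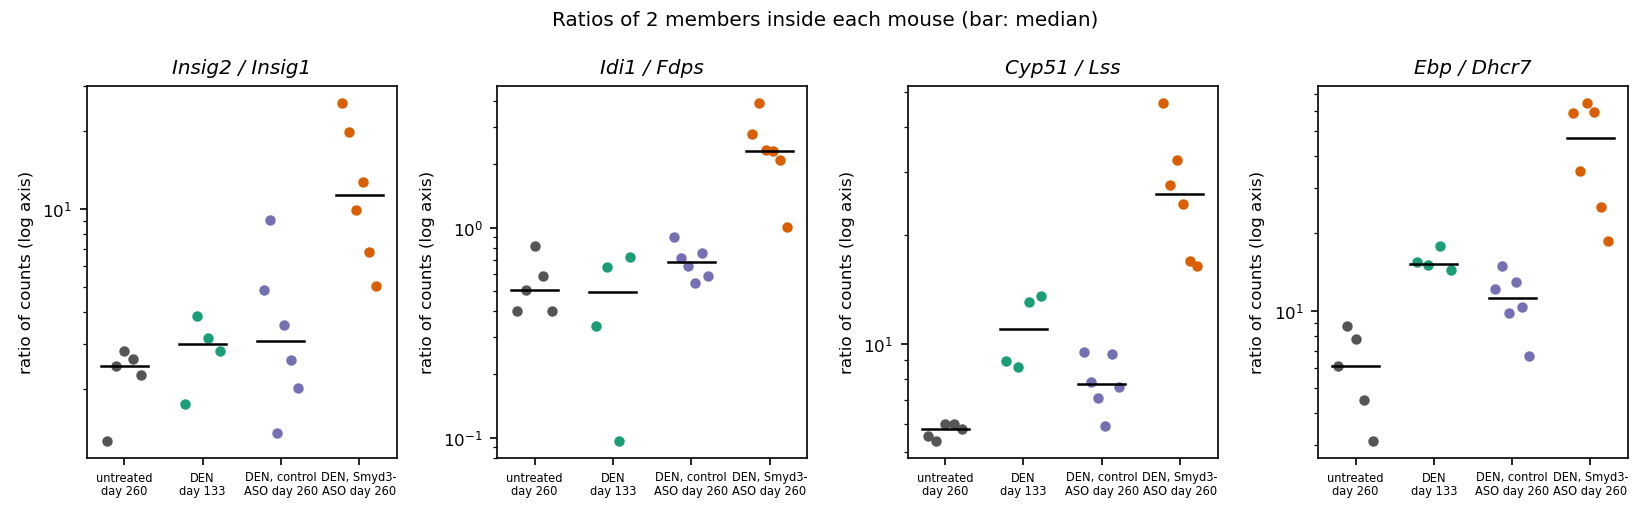
Ratios of the counts of 2 members within each mouse (vertical log axis) in the 4 groups, with the median as a bar. For Idi1 over Fdps, Cyp51 over Lss and Ebp over Dhcr7 the 6 Smyd3-ASO mice lie above all 15 other mice, and for Insig2 over Insig1 they overlap the control-ASO mice.

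Npc1l1, the sterol transporter that ezetimibe blocks, was the member with too few reads to test. It had 0 reads in all 5 untreated and all 4 P133 mice, 1 to 14 reads in each of the 6 control-ASO mice (44 in all) and 0 to 11 in the Smyd3-ASO mice (18 in all, in 4 of 6 mice). With 3 reads over the group as the floor, the pooled level of control-ASO mice was 8.04-fold the floor of untreated and 4.48-fold that of P133 mice. For Smyd3-ASO mice these ratios were 2.15 and 1.2. The reads were pooled over mice, so the ratios do not cover the spread between mice. They allow for counting error in the groups of 0 reads only. The counting error of the 44 and 18 reads is not covered, so the ratios are not lower bounds. The reads carry no molecular identifiers. Of the 18 reads of Smyd3-ASO mice, 11 came from mouse 2. Of the tested members, Ggps1, Sc5d and Stard4 were not called in any of the 6 comparisons under TMM.

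Genes around the pathway, taken from lists of known function, were compared between the ASO groups, where 13.3% of all tested genes were higher and 12.9% lower. Of 12 genes of SREBP processing and sterol-regulated degradation, 2 were higher and 2 lower. Pgrmc1, a haem-binding partner of Cyp51, had a log2 change of 1.5 (edgeR adjusted p = 0.000236), Mbtps1, the site-1 protease that cleaves SREBPs, -0.38 (0.0142), and Ube2g2, a ubiquitin-conjugating enzyme, 0.62 (0.0281). Of 4 electron donors of sterol enzymes, Por, the reductase that serves Cyp51 and Sqle, was higher (1.16, edgeR adjusted p = 0.018) and Cyb5r3 lower (-0.59, 0.019), while Cyb5b (0.58, 0.0826) did not pass the test. Of 9 tested genes of fatty acid synthesis, 2 were higher and 1 lower: Acss2, an acetyl-CoA synthetase, 1.19 (0.00859), Me1, the malic enzyme, 1.58 (0.0354), and Srebf1, the gene of SREBP1, -1.5 (0.00549). Of 11 genes of LXR, efflux and esterification, 2 were higher and 3 lower, with Scarb1, the HDL receptor, at -1.16 (0.000315), Lpcat3 at -0.88 (0.0115) and Soat1, which esterifies cholesterol, at 0.91 (0.0168). Of 11 genes of intracellular sterol transport, 2 were higher and 2 lower, with Gramd1c at 0.82 (0.0023), Npc2 at -0.49 (0.0317) and Stard5 at 0.55 (0.0338). Of 14 genes that use isoprenoids, 2 were higher and 2 lower, with Rabggta at 0.61 (0.0165), Nus1 at 0.40 (0.0212) and Zmpste24 at -0.55 (0.0215). Under library totals none of these signs turned, and Mbtps1, Npc2 and Stard5 were no longer called.

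In P133 over untreated mice, where 15.1% of all tested genes were higher and 16.6% lower, the same lists held calls in both directions. Srebf1 was lower (-1.43, edgeR adjusted p = 0.000328) and Me1 higher (0.79, 0.0407) among 9 fatty acid genes, of which 7 did not pass the test, Acaca (-0.35, 0.241) among them. Of the 11 genes of LXR and efflux, 5 were lower and 1 higher, led by Scarb1 (-1.95, edgeR adjusted p = 1.15e-06), Lcat (-1.32, 5.1e-05) and Nr1h2 (-1.87, 8.03e-05), and under library totals 3 were lower and 2 higher, with the sign of Abca1 turned from -0.46 to 0.15. Of the 12 SREBP processing genes, Aup1 was lower (-1.40, 4.85e-06) and 3 were higher, among them Ube2g2 (0.62, 0.0131) and Rnf145 (0.57, 0.024), the latter a ligase that targets Scap, and under library totals 7 were higher and 1 lower. Of the 14 isoprenoid users 4 were lower and 2 higher, led by Dolk (-0.95, 0.000395), Srd5a3 (-0.98, 0.00065) and Zmpste24 (-0.77, 0.000702), and under library totals 7 were higher and 0 lower. Of the 11 sterol transport genes 3 were higher and 2 lower, led by Lipa (0.64, 0.000854), Npc1 (-0.64, 0.0194) and Stard5 (0.45, 0.0254), and under library totals 6 were higher and 0 lower, with the sign of Stard3 turned from -0.48 to 0.10. Among electron donors Cyb5b was higher (0.65, 0.00253), Cyb5r3 lower (-0.51, 0.0131), with its sign turned under library totals, and Cyb5a had -0.37 (0.087). Under library totals the calls of the fatty acid genes, of Scarb1, Lcat, Nr1h2, Aup1, Ube2g2, Rnf145, Lipa, Stard5 and Cyb5b held their sign and their call, and Npc1 kept its sign (-0.07) without its call.

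Beside the direct comparison, other measures differed between the ASO groups too. Of 15 clock genes 3 were called lower, Hlf (-0.72, edgeR adjusted p = 0.00361), Per2 (-1.04, 0.0095) and Per3 (-2.11, 0.0287), against 12.9% of all tested genes lower. Dbp had 9.48 to 107 CPM in control-ASO and 5.31 to 33.4 CPM in Smyd3-ASO mice. These ranges overlapped, and its log2 change of -1.84 did not pass the test (edgeR adjusted p = 0.0561). Summed hepatocyte markers (6 genes) ran from 48550 to 66940 CPM with control ASO and from 19450 to 42490 CPM with Smyd3-ASO, with Alb and Ttr called lower. The other 4 did not pass the test, with log2 changes of -0.03 for Apoa2, -0.15 for Fgb, -0.28 for Hnf4a and 0.88 for Tat. Such a sum is carried by its most abundant genes. Summed bile duct markers ran from 108 to 228 CPM and from 43.2 to 72.8 CPM, with Epcam higher and Spp1 and Tspan8 lower among 4 tested, and summed erythroid markers from 1762 to 4492 CPM and from 478 to 1125 CPM, with Alas2 higher and the 3 globins lower. Of the other lists, Marco was higher among 6 macrophage genes (log2 change 3.49, edgeR adjusted p = 0.0258), with 0.336 to 5.52 CPM in control-ASO and 3.54 to 119 CPM in Smyd3-ASO mice, so that these groups overlapped. Stab2 (-0.70, 0.00377) and Pecam1 (-0.79, 0.0232) were lower among 5 endothelial genes and Reln (-0.73, 0.0138) among 6 stellate and fibroblast genes. Of the T and B cell, neutrophil and cycling genes 0 were called, and no marker of any list was at 0 in a whole ASO group. The part of these in the result was not tested.

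In some mice many members were high or low together. In untreated mouse 5, 19 of 26 members had their highest level of the group, as did 24.7% of all tested genes, and 21 lay above the group median, by a median of 0.49 on the log2(CPM + 1) scale. In control-ASO mouse 2, 19 members had their lowest level, as did 16.2% of all genes, and the median deviation was -0.73. In control-ASO mouse 3, 15 had their highest, as did 19.2%, with a median of 0.40. In Smyd3-ASO mice the medians of the deviations ran from -0.18 to 0.11. Among untreated and control-ASO mice, most had 92.1 CPM of Dbp or more. The mice with low Dbp in these groups were untreated mouse 5 and control-ASO mice 1 and 2 (13, 9.48 and 11.6 CPM). These were not the same set: in control-ASO mouse 1 the median deviation was 0.06, and control-ASO mouse 3 did not have low Dbp.

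All P133 and Smyd3-ASO mice had less Dbp than the other untreated and control-ASO mice. Leaving out the 3 mice of low Dbp therefore widens the difference in Dbp between groups and is no check on it. With these 3 left out, a choice made after their values were seen, 14 of 26 members were lower in P133 than in untreated mice (15 with them) and 0 higher. Of all 15297 tested genes, 2611 were lower and 2336 higher in that comparison. In control-ASO over untreated mice, 6 members were lower and 4 higher (Hmgcs1, Sqle, Cyp51 and Srebf2), against 3111 lower and 3139 higher of all tested genes. The log2 change of Sqle there turned from -0.13 to 0.51 (edgeR adjusted p = 0.0264). In control-ASO over P133 mice, 11 members were higher and 1, Hsd17b7, lower, against 2056 higher and 1817 lower of all tested genes. In Smyd3-ASO over untreated mice 5 members were higher and 7 lower, against 3526 higher and 3408 lower of all tested genes. In Smyd3-ASO over control-ASO mice, Idi1, Cyp51, Ebp and Insig2 were higher and Lss, Dhcr7, Insig1 and Mylip lower, against 1616 higher and 1593 lower of all tested genes. The changes of Insig1 (-1.20, edgeR adjusted p = 0.0393), Insig2 (1.12, 0.0122) and Lss (-0.84, 0.0213) passed the test. The members' median for that comparison moved from 0.08 to -0.02.

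**Figure D5:**
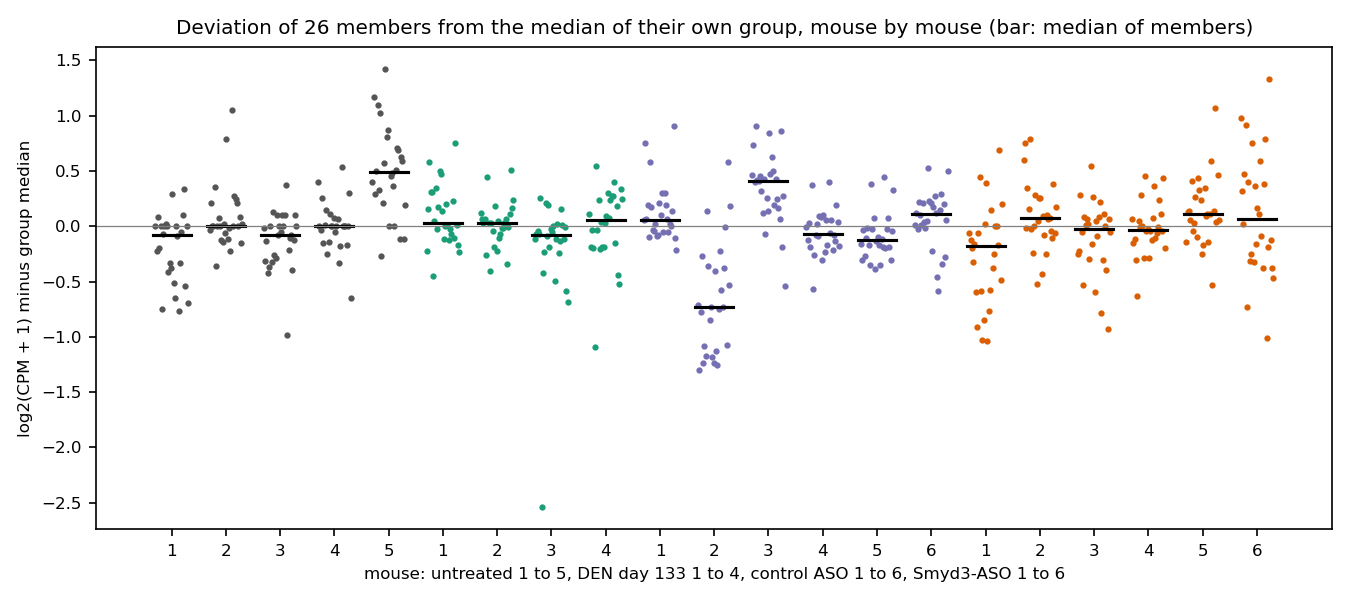
Deviation of each of the 26 tested members from its own group's median on the log2(CPM + 1) scale (vertical axis), mouse by mouse, with the median of the members as a bar. The bar of untreated mouse 5 lies at 0.49, that of control-ASO mouse 2 at -0.73 and that of control-ASO mouse 3 at 0.40, while those of the 6 Smyd3-ASO mice lie between -0.18 and 0.11.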

How the data were processed

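Raw counts per gene, as deposited by the authors, were used throughout. Libraries of 3' ends (Lexogen QuantSeq FWD) were run on a NextSeq 500, per the labels' protocols, and HISAT2 2.1.0, DESeq and mm10 are named in the submitters' processing notes. The counting program, its annotation, filters and strand setting are not given in the sources used here. The authors' table holds 1 column for each of 21 mice, in which the 35 libraries were already merged (2 per control-ASO mouse, 1 to 3 per Smyd3-ASO mouse, 1 otherwise), so each mouse was 1 replicate. A second deposited table of normalized values was not used.

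Totals ran from 4556484 to 20258619 counts per mouse. The share of counts taken by the 10 top genes was 24.9 to 32.2% for untreated mice and 9.46 to 15.7% for Smyd3-ASO mice, with the other groups between 17.3 and 22.9%.

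All 55413 genes matched GENCODE vM21 symbols. Genes were kept with filterByExpr over the 4 groups (15297). Each comparison was fitted on its 2 groups with edgeR 4.0.16 in R 4.3.3 (TMM, robust quasi-likelihood fit, two-sided test, Benjamini-Hochberg over 15297 genes, threshold 0.05). Alternatives used other scalings, no low-count filter, DESeq2 1.42.0, limma 3.58.1 voom, all groups in 1 fit, a replicate block, and each mouse left out. The fit was checked on simulated data. The members, gene lists and comparisons were chosen with earlier results of these data known. Members called in at least 1 comparison, those not measured, Smyd3 and the 3 genes of smallest adjusted p in each surrounding list were named. Nothing states how mice were randomized, and spread between mice is what the p-values measure. A ratio against 0 reads uses 3 reads over the group.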

Additional observations from a re-analysis of the deposited data

Results flagged for a closer look

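Within a group, the gap between the highest or lowest mouse and its nearest neighbour, divided by the range, was compared with Dixon's 95% limit. Of 106 groups of values checked, 10 passed it. The limit's chance rate of about 1 in 20 is for independent, normally distributed values. The values here were untransformed CPM, and members can move together in a mouse, so 10 of 106 cannot be weighed against that rate.

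Untreated mouse 5 was set apart in 5 members, all of them high. It had 496.6 CPM of Hmgcs1 (the others 177.2 to 255.2), 295.4 CPM of Fdps (115.4 to 160), 62.72 CPM of Sqle (16.87 to 24.47), 41.46 CPM of Lss (18.26 to 23.59) and 241.1 CPM of Cyp51 (101.1 to 139.2). These genes span the pathway from its start to the demethylation of lanosterol.

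In P133 mouse 1, Mvk stood at 11.15 CPM, above 6.876 to 7.294 CPM in the others. In control-ASO mouse 3, Pmvk stood at 41.55 CPM and Tm7sf2 at 91.65 CPM, above at most 25.48 and 54.42 CPM. In Smyd3-ASO mouse 1, Dhdds was high at 23.89 CPM (the others 14.41 to 17.54) and Hsd17b7 low at 29.55 CPM (41.97 to 48.21).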

How the results depend on the processing

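Each member's change was refitted under every alternative. Leaving out any 1 mouse, DESeq2, limma voom, 1 fit of all groups, the other scaling factors, the replicate block and no low-count filter reversed 0 called changes. Library totals turned the sign of 19 changes that were called under TMM (10) or only under library totals (9). In control ASO over untreated these were Acat2 (0.5887), Mvk (0.5804), Ggps1 (0.5293), Dhdds (0.09398), Sqle (0.7708), Tm7sf2 (0.1337), Msmo1 (0.1367), Hsd17b7 (0.3089) and Ebp (0.03628). In Smyd3-ASO over untreated they were Mvk (0.6257), Ggps1 (0.4598), Dhdds (0.3521), Tm7sf2 (0.1305), Msmo1 (0.2112), Hsd17b7 (0.7473) and Sc5d (0.8491), and in P133 over untreated Pmvk (0.07764), Cyp51 (0.5083) and Scap (0.1971). Without the 3 mice of low Dbp, Sqle in control ASO over untreated was 0.5132.

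Counts of called members moved as follows. With library totals, 1 was lower in Smyd3-ASO over control ASO, 11 higher and 1 lower in control ASO over untreated (10723 of all genes called), 14 higher and 2 lower in Smyd3-ASO over untreated, 4 higher and 7 lower in P133 over untreated (7292 of all genes), 11 higher in control ASO over P133 and 0 lower in Smyd3-ASO over P133. DESeq2 and the fit of all groups each gave 4 lower in Smyd3-ASO over control ASO, and these and limma voom gave 1 lower in control ASO over P133 and 2 lower in Smyd3-ASO over P133. Without a low-count filter, 2 were higher in control ASO over untreated. Without the 3 mice of low Dbp, 4 were lower in Smyd3-ASO over control ASO, 4 higher in control ASO over untreated, and 11 higher and 1 lower in control ASO over P133. The cause of these moves was not tested.

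Leaving out each mouse in turn gave 3 to 5 higher and 1 to 4 lower in Smyd3-ASO over control ASO, 1 to 1 and 6 to 11 in control ASO over untreated, 2 to 5 and 7 to 10 in Smyd3-ASO over untreated, 0 to 0 and 12 to 15 in P133 over untreated, 4 to 12 and 0 to 1 in control ASO over P133, and 7 to 12 and 1 to 2 in Smyd3-ASO over P133. All genes called in that last comparison ran from 2519 (without P133 mouse 2) to 4282 (without Smyd3-ASO mouse 6), against 3794 with all mice.

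The labels number the mice of each group, but same-numbered mice share only a number. Deviations of same-numbered mice correlated above 0.1 in 1 pair of 5 in Smyd3-ASO over untreated and in 0 pairs of the other 5 comparisons. Of the mice with a number in both groups, 3 of 10 correlated best with their own number in Smyd3-ASO over untreated, 2 of 8 each in P133 over untreated and Smyd3-ASO over P133, and 0 in the other 3 comparisons. With the replicate block, 1 member was lower in Smyd3-ASO over control ASO, 4 were higher in control ASO over P133 (2530 of all genes called) and 2 lower in Smyd3-ASO over P133.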
